A study of Mus musculus with 9 samples.

Results

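The 37 genes described here cover the path of glucose from its entry into the cell to lactate, the gate from pyruvate into the mitochondrion, and the pentose phosphate branch. They are 3 glucose transporters, 10 genes of upper and 8 of lower glycolysis, 4 genes of lactate production and transport, 5 of the pyruvate dehydrogenase step, 3 that set the level of an activator of phosphofructokinase, and 4 of the pentose phosphate branch. They were found by gene symbol among 41586 symbols on 39601 named transcript clusters, the array's probe sets for a transcript region. Where several clusters carried a symbol, the brightest over the 9 arrays stood for the gene, a choice that 4 genes needed. All 37 were found.

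The series compared 3 mouse cell populations on Affymetrix Mouse Transcriptome Arrays, with 3 arrays each. Adult samples were living Sox2-GFP+ cells sorted from the labial cervical loop, the epithelial stem cell region of the continuously growing incisor, of mice at postnatal day 30. Embryo samples were living Sox2-GFP+ cells sorted from the incisor epithelium at stage E14.5, in the middle of gestation. The third group was mouse embryonic stem cells (mESC), purchased, with no strain or culture condition stated. Both dental groups came from Sox2-GFP+ mice, in which a green fluorescent protein reports Sox2, a transcription factor of epithelial and pluripotent stem cells, and every dental sample pooled several animals. The titles call the mESC samples biological replicates but do not say whether they were grown apart. The p-values therefore reflect how far these samples scatter, which may be technical scatter.

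As background, glycolysis splits glucose into pyruvate in the cytosol. Hexokinases trap the sugar, phosphofructokinase commits it, and pyruvate kinase releases the last energy-rich phosphate. Lactate dehydrogenase then turns pyruvate into lactate, which monocarboxylate transporters carry out of the cell, while pyruvate dehydrogenase sends pyruvate to the tricarboxylic acid cycle and is switched off by its kinases. The pentose phosphate branch draws off glucose phosphate for ribose and NADPH. Fast-growing embryonic and pluripotent cells are known for a high rate of glycolysis to lactate even in oxygen, and hypoxia-inducible factors and Myc are known activators of many of these genes.

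Values are the deposited log2 signals, where a difference of 1 is a doubling. Differences were tested with limma over all 39601 named clusters and are given with their standard error, and a gene was called higher or lower at a Benjamini-Hochberg adjusted p under 0.05 and a difference of at least 1. Adjusted p-values come from that fit unless another fit or test is named beside them. The negative-control probe sets had a median of 4.81, so levels near it cannot be told from background. Deposited values were often identical between arrays: in 45.9% of the 37 genes, and in 47.8% of all named clusters, at least 2 arrays of a group had the same value to 2 decimals, which makes single standard deviations small. Signals of different clusters cannot be set against each other as levels, because probes differ in brightness. In bulk samples, fewer cells of a type and less RNA per cell cannot be told apart.

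Adult replicate 1 lay farthest from its group, with a standard deviation of 0.264 around the group mean over all named clusters, against 0.151 to 0.202 for the other 8 arrays. It was the lowest adult array for 20 of the 37 genes. Embryo replicate 2 was the highest embryo array for 22 of the 37. A second deposited summary with the same values names its columns by a sample code and a string of digits. The digits were read here as processing days, which no label states. By that reading the first day held 2 adult arrays and 1 embryo array, and the second held the other 6, all mESC arrays included. In these names 2 of the 3 embryo columns, 1 from each day, carry the same sample code, while the sample titles number 3 embryo replicates. Their values differ, and whether they came from the same pool of cells is not known. With those 2 columns averaged and counted as 1 sample, 11 genes were lower and 2 higher for adult minus embryo, and 11 lower and 1 higher for embryo minus mESC. The calls lost were Slc2a4 for adult minus embryo (-0.97) and Pdha1 for embryo minus mESC (adjusted p = 0.0762).

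Adult dental cells had lower signals than embryonic dental cells for 12 of the 37 genes and higher signals for 2. The 12 were the glucose transporter genes Slc2a1 and Slc2a4, the enzyme genes Pfkl, Aldoc, Tpi1, Pgk1, Pgam1, Pkm and Ldha, the lactate exporter gene Slc16a3, and the regulatory genes Pdk1 and Pfkfb3. The 2 were Ldhb and Pdk2. Of all named clusters, 3.59% were called lower and 2.83% higher in that comparison, or 6.42% in either direction. The median difference of the 37 genes was -0.67, against -0.01 over all named clusters. In 27 of the 37 genes the adult and embryo arrays did not overlap, which 27.8% of all named clusters also showed.

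Embryonic dental cells had lower signals than mESC for 12 genes and a higher signal for 1, Slc2a4, against 6.1% and 4.89% of all named clusters, or 11.0% in either direction. The embryo and mESC arrays did not overlap in 26 of the 37 genes, against 42.0% of all named clusters. Adult dental cells had lower signals than mESC for 22 genes and a higher signal for 1, Pdk2, against 10.3% and 6.86%, or 17.1% in either direction. Adult and mESC arrays did not overlap in 30 genes, against 47.5%. The median differences were -0.59 for embryo minus mESC and -1.29 for adult minus mESC, each beside -0.07 over all named clusters. The 3 comparisons share samples, so their counts are not independent of each other. By group means, 19 of the 37 genes were highest in mESC, intermediate in the embryo and lowest in the adult. Slc2a1, Aldoc, Pgk1 and Pdk1 were called lower in all 3 comparisons, adult below embryo and embryo below mESC. Of these, Aldoc missed the minimum for adult minus embryo without adult replicate 2 (-0.94), and Pdk1 missed it without adult replicate 1 (-0.96) and with processing day as a block (-0.99). Pgk1 missed it for embryo minus mESC at the cluster of its own position (-0.8). A further 10 genes were called in none: Hk1, Hk3, Pfkm, Pgam2, Eno2, Pdk3, Pfkfb2, Pfkfb4, G6pdx and Pgd.

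**Figure D1:**
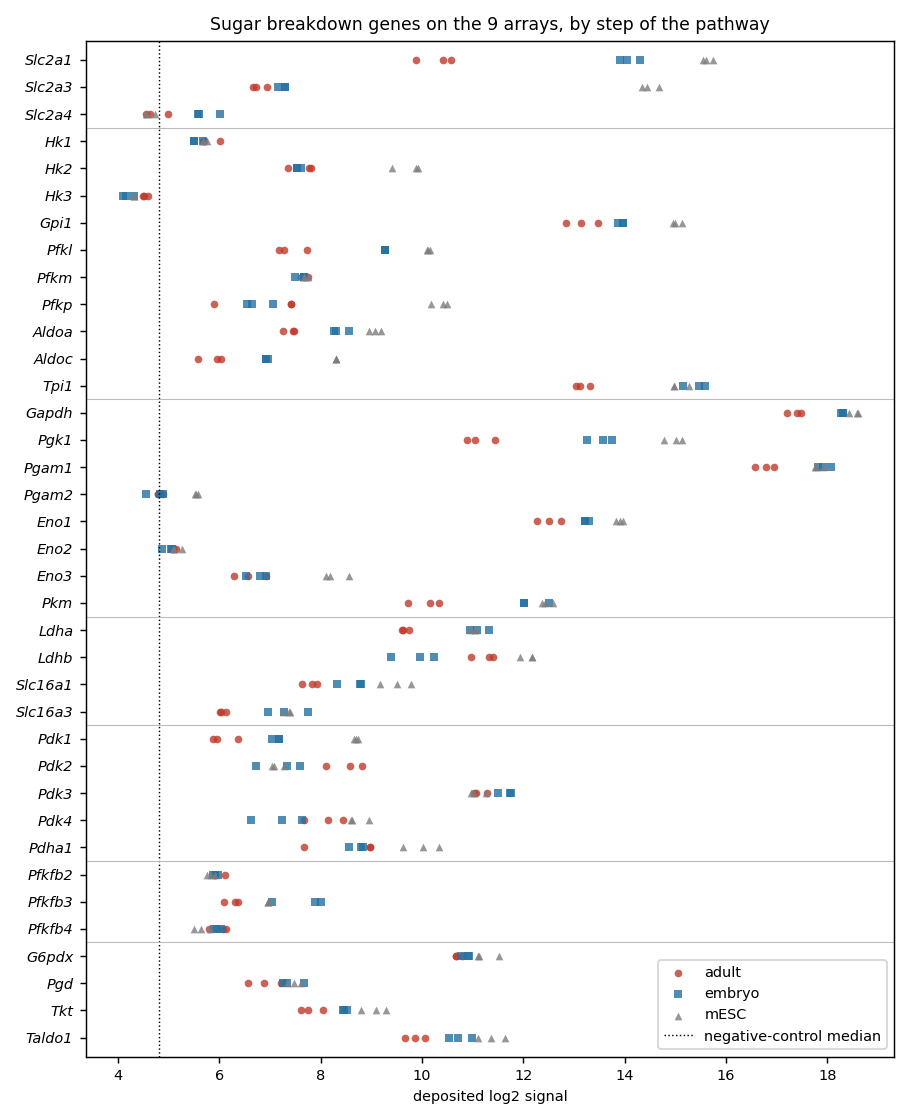
Deposited log2 signal (horizontal axis) of the 37 genes (rows, grouped by step of the pathway), with 1 symbol per array for the adult, embryo and mESC groups and a dotted line at the negative-control median of 4.81. Adult symbols lie left of embryo symbols for Slc2a1, Pfkl, Tpi1, Pgk1 and Pkm and right of them for Ldhb and Pdk2, while Slc2a3, Hk2 and Pfkp are set apart in mESC.

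The promoters of 6 genes are shown because they stand for both directions: Slc2a1, Pgk1, Ldha and Pdk1 were lower, and Ldhb and Pdk2 higher, in adult than in embryonic dental cells. Each is the stretch of 250 bases before the first start that the RefSeq table lists for the gene, on mouse assembly GRCm38.p6, written 5′ to 3′ on the gene's strand. Capitals mark the 5-base cores ACGTG and GCGTG on either strand, so that CACGT and CACGC are the same letters read from the other strand. These cores are the ones that hypoxia-inducible factors are known to recognise. CACGTG, the E-box bound by Myc and its relatives, reads the same on both strands and holds ACGTG on each.

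Slc2a1, chr4:119108495-119108744, plus strand: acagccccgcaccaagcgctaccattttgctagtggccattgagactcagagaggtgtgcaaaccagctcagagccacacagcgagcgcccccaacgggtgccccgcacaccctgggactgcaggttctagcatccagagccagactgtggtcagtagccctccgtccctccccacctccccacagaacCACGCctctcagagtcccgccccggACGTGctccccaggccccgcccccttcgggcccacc
Pgk1, chrX:106186850-106187099, plus strand: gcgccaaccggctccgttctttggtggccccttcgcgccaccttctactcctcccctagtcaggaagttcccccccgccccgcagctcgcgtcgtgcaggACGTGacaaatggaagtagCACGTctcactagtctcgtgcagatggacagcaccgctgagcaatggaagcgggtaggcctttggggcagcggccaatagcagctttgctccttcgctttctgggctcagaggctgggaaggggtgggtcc
Ldha, chr7:46845554-46845803, plus strand: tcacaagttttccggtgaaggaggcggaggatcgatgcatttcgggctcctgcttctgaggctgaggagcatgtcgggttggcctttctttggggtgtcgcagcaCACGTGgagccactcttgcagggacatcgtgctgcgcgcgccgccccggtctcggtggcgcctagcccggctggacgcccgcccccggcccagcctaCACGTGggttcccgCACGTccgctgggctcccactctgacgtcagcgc
Pdk1, chr2:71872974-71873223, plus strand: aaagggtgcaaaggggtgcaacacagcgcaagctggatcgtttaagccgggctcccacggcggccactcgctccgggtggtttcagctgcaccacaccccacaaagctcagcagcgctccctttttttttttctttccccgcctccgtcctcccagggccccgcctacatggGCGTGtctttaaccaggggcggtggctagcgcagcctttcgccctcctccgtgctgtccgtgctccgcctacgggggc
Ldhb, chr6:142507958-142508207, minus strand: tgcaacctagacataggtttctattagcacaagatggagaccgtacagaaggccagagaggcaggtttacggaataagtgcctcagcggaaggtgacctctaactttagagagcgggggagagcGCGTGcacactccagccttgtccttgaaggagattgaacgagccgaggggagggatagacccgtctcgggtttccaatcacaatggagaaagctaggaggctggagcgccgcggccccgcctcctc
Pdk2, chr11:95041372-95041621, minus strand: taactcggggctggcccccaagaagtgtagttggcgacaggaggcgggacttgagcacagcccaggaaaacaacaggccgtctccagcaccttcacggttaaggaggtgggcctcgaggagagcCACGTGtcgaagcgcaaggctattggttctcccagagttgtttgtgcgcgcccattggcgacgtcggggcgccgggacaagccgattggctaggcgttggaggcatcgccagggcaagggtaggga

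Slc2a1 held both cores, 61 and 36 bases before the start. Pgk1 held ACGTG on each strand, 150 and 131 bases before it. Ldha held CACGTG at 2 places and a further ACGTG match, all within 145 bases of the start. Pdk1 and Ldhb held 1 GCGTG match each, and Pdk2 held 1 CACGTG. The table lists a second start for Ldha, Pdk1 and Pdk2. The window before it held 1 GCGTG match in Ldha and 0 matches to either core in Pdk1 and in Pdk2. Genes of both directions carried a core in the window before the first start. Over the 35 genes found in the promoter table, 88.6% had at least 1 promoter with ACGTG or GCGTG, against 41.5% of all 27025 genes in it. The share was 10 of 11 (90.9%) for genes called lower in adult than in embryonic cells and 19 of 22 (86.4%) for genes not called. Genes with more listed starts have more chances of a match in this count. Counted by promoter, 78.8% of the 52 member promoters and 38.6% of all 32851 held either core. Slc2a3 and Slc2a4 were not in the table. The 37 genes' promoters were richer in G and C than the average, with a median of 59.4% against 52.4% over all 32851 promoters, and both cores contain CG. CACGTG was found in 11.5% of the 52 member promoters and 6.02% of all. The box bound by Sp1, GGGCGG, was found in 48.1% of member promoters and 32.7% of all. A TATA box, TATAAA, was found in 1.92% and 12.4%. Every motif was searched on both strands. A match is a run of letters and does not show that a factor binds there.

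Glucose entry held the largest difference of the 37 genes in each comparison, Slc2a1 for adult minus embryo and Slc2a3 against mESC. Slc2a1, the glucose transporter GLUT1 of most growing cells, had signals of 9.89, 10.42 and 10.57 in adult cells, 14.04, 14.3 and 13.91 in embryonic cells, and 15.6, 15.55 and 15.75 in mESC. The 3 groups did not overlap. Adult cells were 13.8-fold below embryonic cells (difference -3.79 ± 0.18, adjusted p = 2.85e-05) and 40.5-fold below mESC, and embryonic cells were 2.93-fold below mESC (-1.55 ± 0.18, adjusted p = 0.000525).

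Slc2a3, the high-affinity transporter GLUT3 of neurons and early embryos, separated mESC from both dental groups. It had 6.93, 6.66 and 6.73 in adult cells, 7.16, 7.29 and 7.29 in embryonic cells, and 14.68, 14.34 and 14.45 in mESC. Embryonic cells were 152-fold below mESC (-7.24 ± 0.11, adjusted p = 1.3e-08), while adult cells lay below embryonic cells by less than the minimum (-0.47 ± 0.11, adjusted p = 0.0205), with no overlap between the 2 groups. Slc2a4, the insulin-responsive transporter GLUT4 of muscle and fat, stayed near background, with group means of 4.72 in adult cells, 5.73 in embryonic cells and 4.62 in mESC. Its adult and mESC means lay at or below the negative-control median, and its difference of -1.01 ± 0.15 between adult and embryonic cells (adjusted p = 0.00334) was not called in 8 of 27 alternative analyses, with -0.92 without adult replicate 1, -0.96 without adult replicate 2 and -0.86 without embryo replicate 2. Its embryo minus mESC difference of 1.11 ± 0.15 was 0.96 without embryo replicate 2.

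Within each array, the Slc2a1 signal minus the Slc2a3 signal gives a measure that a scaling of the whole array cannot move. Only its change between groups can be read. It averaged 3.52 ± 0.49 in adult cells, 6.84 ± 0.2 in embryonic cells and 1.14 ± 0.2 in mESC (SD, n = 3 each), with no overlap. The change was -3.32 for adult minus embryo and 5.69 for embryo minus mESC. Each had p = 0.1 in a two-sided exact permutation test, the smallest that 3 against 3 allows, and 0.157 after adjustment over the 36 tests of 12 gene pairs.

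In upper glycolysis, 3 of 10 genes were called lower in adult than in embryonic cells and none higher. Of all named clusters, 3.59% were called lower and 2.83% higher. For adult minus mESC 7 of the 10 genes were lower, against 10.3% of all named clusters. Pfkl, the liver-type subunit of phosphofructokinase, had 7.28, 7.73 and 7.17 in adult cells, 9.26 on all 3 embryo arrays, and 10.15, 10.11 and 10.1 in mESC. The groups did not overlap, and adult cells were 3.65-fold below embryonic cells (-1.87 ± 0.13, adjusted p = 0.000119). Pfkp, the platelet-type subunit, showed another pattern, with 5.9, 7.41 and 7.41 in adult cells, 7.06, 6.64 and 6.55 in embryonic cells, and 10.42, 10.49 and 10.17 in mESC. Both dental groups overlapped each other (0.16 ± 0.39, adjusted p = 0.88), and embryonic cells were 12.2-fold below mESC (-3.61 ± 0.39, adjusted p = 0.000351). The overlap came from adult replicate 1, which lay below all embryo arrays, while adult replicates 2 and 3 lay above them. Over 27 alternative analyses the Pfkp adult minus embryo difference ranged from -0.1 to 0.8 and was never called. Pfkm, the muscle-type subunit, lay between 7.5 and 7.75 on all 9 arrays.

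The Pfkp signal minus the Pfkl signal averaged -0.49 ± 0.82 in adult cells, -2.51 ± 0.27 in embryonic cells and 0.24 ± 0.16 in mESC (SD, n = 3 each). The adult arrays, at -1.38, -0.32 and 0.24, were all above the embryo arrays (change 2.02, exact permutation p = 0.1, 0.157 adjusted). They overlapped those of mESC.

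Triose phosphate isomerase, Tpi1, which interconverts the products of aldolase, had 13.04, 13.31 and 13.11 in adult cells, 15.46, 15.59 and 15.16 in embryonic cells, and 14.97, 14.97 and 15.28 in mESC. Embryo and mESC arrays overlapped and all lay above the adult arrays, which were 4.76-fold below embryonic cells (-2.25 ± 0.14, adjusted p = 7.44e-05). Aldoc, an aldolase best known from brain, had 6.04, 5.58 and 5.95 in adult cells, 6.92, 6.95 and 6.92 in embryonic cells, and 8.31, 8.3 and 8.3 in mESC. Its groups did not overlap, and its adult minus embryo difference of -1.07 ± 0.11 (adjusted p = 0.000629) was -0.94, below the minimum, without adult replicate 2. Aldoa, the aldolase of muscle and most tissues, averaged 7.39 ± 0.12 in adult cells, 8.37 ± 0.15 in embryonic cells and 9.07 ± 0.12 in mESC, and missed the minimum with -0.98 ± 0.1 (adjusted p = 0.000744). It was called in 8 of 27 alternative analyses, with -1.01 with processing day as a block, -1.06 after median centring, -1.01 without adult replicate 1, -1.02 without adult replicate 3, -1.02 without embryo replicate 1 and -1.03 without embryo replicate 3. Gpi1, which isomerises glucose phosphate to fructose phosphate, averaged 13.15 ± 0.31, 13.93 ± 0.05 and 15.02 ± 0.09 in the adult, embryo and mESC groups. It was called lower in both dental groups than in mESC, though the embryo minus mESC difference of -1.09 ± 0.14 was -0.98 after quantile normalisation.

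The hexokinase genes did not separate adult from embryonic cells at the threshold. Hk2, the inducible hexokinase, had 7.36, 7.76 and 7.81 in adult cells, 7.62, 7.53 and 7.54 in embryonic cells, and 9.92, 9.88 and 9.41 in mESC. The 2 dental groups overlapped (0.08 ± 0.16, adjusted p = 0.846), and embryonic cells were 4.51-fold below mESC (-2.17 ± 0.16, adjusted p = 5.47e-05). Hk1, the broadly used hexokinase, ranged from 5.49 to 6.01 over the 9 arrays, and Hk3, known from leukocytes, lay at or below the negative-control median in every group.

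**Figure D2:**
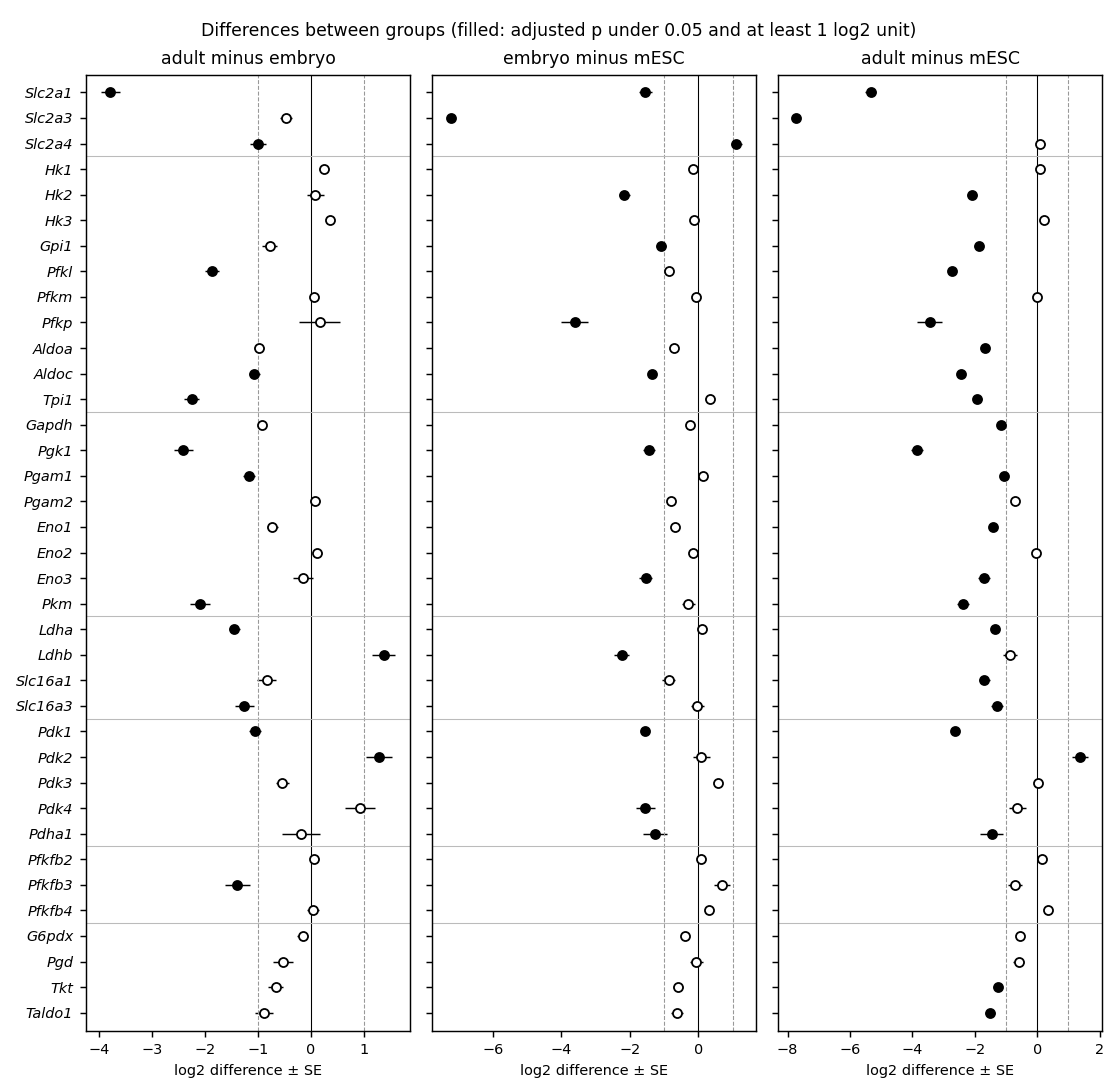
Differences between groups on the log2 scale (horizontal axes, ± standard error from limma) for the 37 genes, as adult minus embryo, embryo minus mESC and adult minus mESC. Filled circles passed an adjusted p under 0.05 and a difference of at least 1: 12 lower and 2 higher genes on the left, 12 and 1 in the middle, and 22 and 1 on the right.

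Lower glycolysis followed the same direction, with 3 of 8 genes called lower in adult than in embryonic cells and none higher. The shares of all named clusters were 3.59% and 2.83%. Phosphoglycerate kinase, Pgk1, the first of the steps that regain ATP, had 10.88, 11.04 and 11.45 in adult cells, 13.26, 13.76 and 13.57 in embryonic cells, and 15.13, 14.78 and 15.02 in mESC. The groups did not overlap and adult cells were 5.3-fold below embryonic cells (-2.41 ± 0.18, adjusted p = 0.000163). Pyruvate kinase, Pkm, which makes pyruvate, had 9.73, 10.33 and 10.15 in adult cells, 12.01, 12.5 and 12.01 in embryonic cells, and 12.43, 12.36 and 12.59 in mESC. Adult cells were 4.3-fold below embryonic cells (-2.1 ± 0.19, adjusted p = 0.000329), and the embryo and mESC arrays overlapped (-0.29 ± 0.19, adjusted p = 0.296). The splice forms of Pkm were not separated by this cluster.

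Pgam1, the phosphoglycerate mutase of most tissues, had 16.95, 16.79 and 16.57 in adult cells, 17.82, 18.07 and 17.92 in embryonic cells, and 17.76, 17.77 and 17.92 in mESC. It was called lower in adult than in embryonic cells (-1.17 ± 0.11, adjusted p = 0.000456), with -0.95 after quantile normalisation. Gapdh, often used as a reference gene, averaged 17.36 ± 0.15 in adult cells, 18.3 ± 0.02 in embryonic cells and 18.54 ± 0.09 in mESC. The adult arrays lay below all others (-0.93 ± 0.08 against embryonic cells, adjusted p = 0.000364), short of the minimum. Eno1, the enolase of most cells, averaged 12.51 ± 0.24, 13.24 ± 0.05 and 13.9 ± 0.07 in the adult, embryo and mESC groups, and was called lower only for adult minus mESC (-1.4 ± 0.11, adjusted p = 4.4e-05). Eno3, the muscle enolase, was 2.9-fold lower in embryonic cells than in mESC (-1.54 ± 0.19, adjusted p = 0.000686) and overlapped between the dental groups. Eno2, the neuronal enolase, and Pgam2, the muscle mutase, lay between 4.55 and 5.58 on all arrays. Of 8 skeletal muscle markers, 6 were below the negative-control median in adult cells, Ckm and Myod1 among them.

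The rule's clusters for Gapdh, Pgk1 and Pgam1 do not lie at those genes. By the deposited coordinates, whose genome build no source used here states, the Gapdh cluster lies on chromosome 7. The Pgk1 cluster lies on chromosome 12 and the Pgam1 cluster on chromosome 7. Signal from near-identical copies cannot be told apart at these clusters. The clusters at the genes' own positions, on chromosomes 6, X and 19 of GRCm38.p6, were looked up after the values were seen. There Pgk1 had 10.37, 10.28 and 10.62 in adult cells, 12.79, 12.9 and 12.79 in embryonic cells, and 13.6, 13.52 and 13.75 in mESC. Its adult minus embryo difference was almost the same (-2.4 ± 0.1, adjusted p = 1.38e-05), but its embryo minus mESC difference was -0.8 ± 0.1, below the minimum. Pgam1 gave -1.43 ± 0.12 (adjusted p = 0.000278) for adult minus embryo. Gapdh gave -0.79 ± 0.08, and its adult minus mESC difference of -0.84 was no longer called. The Eno1 cluster lies at its gene and also carries the symbol of a copy, Eno1b.

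**Figure D3:**
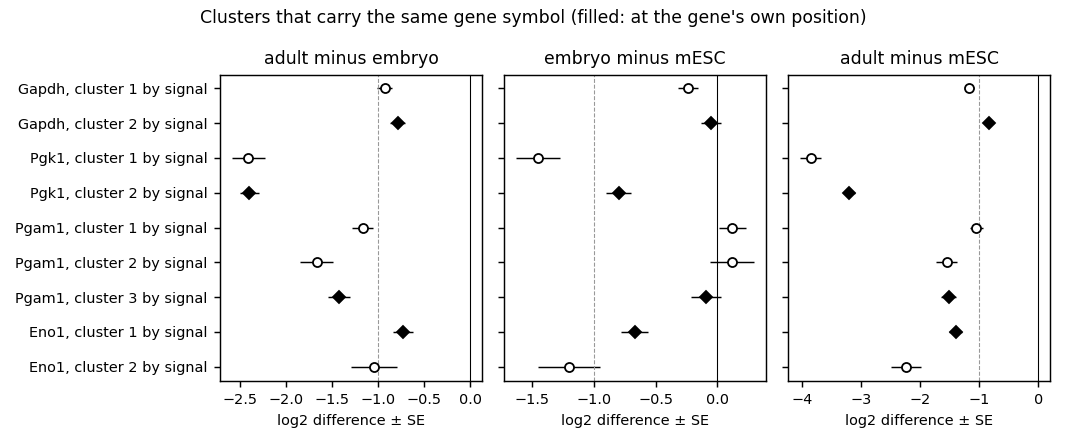
Log2 differences ± standard error (horizontal axes) for every cluster that carries the symbol Gapdh, Pgk1, Pgam1 or Eno1, ordered by brightness, with filled diamonds for the cluster at the gene's own position. For Pgk1 the 2 clusters give -2.41 and -2.4 for adult minus embryo but -1.45 and -0.8 for embryo minus mESC.

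At the lactate step the 2 lactate dehydrogenase genes moved in opposite directions. Ldha, whose subunit favours making lactate, had 9.75, 9.63 and 9.61 in adult cells, 11.08, 11.32 and 10.95 in embryonic cells, and 11.04, 10.95 and 11.05 in mESC. Embryo and mESC arrays overlapped and all lay above the adult arrays, which were 2.74-fold below embryonic cells (-1.45 ± 0.1, adjusted p = 9.52e-05). Ldhb, whose subunit favours turning lactate back into pyruvate, had 10.96, 11.41 and 11.32 in adult cells, 9.96, 9.38 and 10.24 in embryonic cells, and 11.94, 12.17 and 12.18 in mESC. Adult cells were 2.58-fold above embryonic cells (1.37 ± 0.22, adjusted p = 0.00454), and embryonic cells were 4.71-fold below mESC (-2.24 ± 0.22, adjusted p = 0.000216).

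The Ldha signal minus the Ldhb signal was -1.21, -1.78 and -1.71 in adult cells, 1.12, 1.94 and 0.71 in embryonic cells, and -0.9, -1.22 and -1.13 in mESC. Adult and embryo arrays did not overlap (change -2.82, exact permutation p = 0.1, 0.157 adjusted), nor did embryo and mESC arrays (change 2.34). The adult and mESC arrays overlapped (change -0.48, exact permutation p = 0.2, 0.248 adjusted), although both genes were lower in adult cells by mean.

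Slc16a3, the monocarboxylate transporter MCT4 that exports lactate, had 6.12, 6.01 and 6.04 in adult cells, 7.27, 7.74 and 6.95 in embryonic cells, and 7.26, 7.4 and 7.38 in mESC. Adult cells were 2.4-fold below embryonic cells (-1.26 ± 0.18, adjusted p = 0.00235) and embryo and mESC arrays overlapped. Slc16a1, the transporter MCT1 that carries lactate both ways, averaged 7.79 ± 0.15, 8.63 ± 0.27 and 9.49 ± 0.31 in the adult, embryo and mESC groups. Its adult minus embryo difference of -0.84 ± 0.18 (adjusted p = 0.0186) was under the minimum, and adult cells were 3.26-fold below mESC. Emb, embigin, a membrane partner of these transporters, had 6.84, 8.61 and 8.85 in adult cells, 11.48, 11.36 and 12.34 in embryonic cells, and 12.87, 12.79 and 13.15 in mESC (adult minus embryo -3.63 ± 0.52, adjusted p = 0.00264). Bsg, basigin, their other partner, was 14.91 in adult cells and 14.64 in embryonic cells by mean (0.27 ± 0.09, adjusted p = 0.0988).

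**Figure D4:**
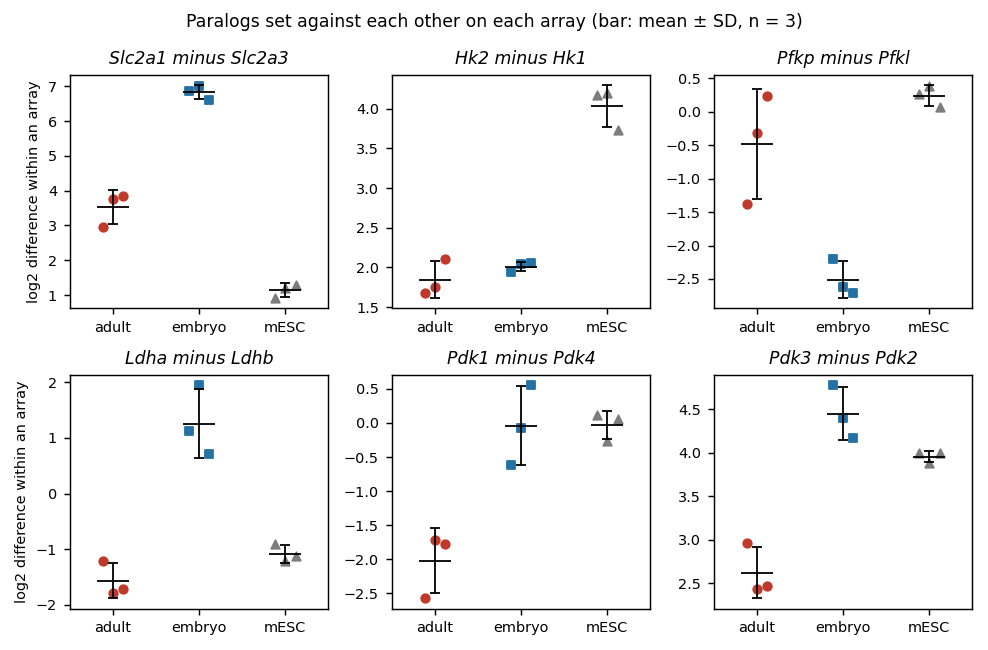
Within-array differences of log2 signal between 2 genes of the same step (vertical axes), with 1 symbol per array, and the mean ± SD of 3 arrays for the adult, embryo and mESC groups. The Ldha minus Ldhb panel shows embryo arrays at 0.71 to 1.94 above adult arrays at -1.78 to -1.21, and only changes between groups can be read, not the height of a panel.

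The 4 pyruvate dehydrogenase kinases, which block the entry of pyruvate into the tricarboxylic acid cycle, did not move together. Pdk1, the isoform induced by low oxygen, had 5.87, 5.96 and 6.37 in adult cells, 7.03, 7.17 and 7.17 in embryonic cells, and 8.73, 8.69 and 8.65 in mESC. The groups did not overlap, and the adult minus embryo difference was -1.06 ± 0.12 (adjusted p = 0.00117). It was not called in 6 of 27 alternative analyses, with -0.96 without adult replicate 1, -0.99 with processing day as a block, -1.0 with array weights and -0.73 on the second day alone. Pdk2, the broadly expressed isoform, had 8.1, 8.58 and 8.81 in adult cells, 6.73, 7.33 and 7.59 in embryonic cells, and 7.03, 7.08 and 7.28 in mESC. It was 2.43-fold higher in adult than in embryonic cells (1.28 ± 0.25, adjusted p = 0.0107) and 2.58-fold higher than in mESC. In a fit of the 2 dental groups alone its adult minus embryo adjusted p was 0.0511.

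Pdk4, induced by fasting in muscle and heart, had 8.44, 7.67 and 8.15 in adult cells, 7.64, 7.24 and 6.62 in embryonic cells, and 8.62, 8.95 and 8.59 in mESC. Its adult minus embryo difference of 0.92 ± 0.28 missed both limits (adjusted p = 0.0699). It reached 1.13 (adjusted p = 0.0467) without adult replicate 2 and 1.16 (adjusted p = 0.0344) without embryo replicate 1. Pdk3 averaged 11.12 ± 0.14 in adult cells, 11.66 ± 0.14 in embryonic cells and 11.08 ± 0.16 in mESC, and was not called. The Pdk3 signal minus the Pdk2 signal fell to 2.62 ± 0.29 in adult cells, against 4.45 ± 0.3 in embryonic cells (change -1.82, exact permutation p = 0.1, 0.157 adjusted). Pdha1, the catalytic subunit these kinases act on, had 7.66, 8.98 and 8.98 in adult cells and overlapped 8.55, 8.84 and 8.79 in embryonic cells. Its mESC arrays, at 9.63, 10.02 and 10.34, were above both, but the embryo minus mESC call (-1.27 ± 0.36, adjusted p = 0.033) was lost in 7 of 27 alternatives and the adult minus mESC call (-1.46 ± 0.36, adjusted p = 0.0142) in 4 of 27.

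Of the genes that make or break the bisphosphate activator of phosphofructokinase, 1 of 3 was called. It was lower in adult than in embryonic cells, as 3.59% of all named clusters were. Pfkfb3, the isoform with the strongest kinase activity, had 6.1, 6.3 and 6.37 in adult cells, 7.89, 8.0 and 7.04 in embryonic cells, and 6.96 on all 3 mESC arrays. Adult cells were 2.61-fold below embryonic cells (-1.39 ± 0.23, adjusted p = 0.00535), and embryonic and mESC cells differed by less than the minimum (0.68 ± 0.23, adjusted p = 0.0625). The adult minus embryo difference was not called in 3 of 27 alternative analyses. It was -1.8 on the first day alone, -1.09 on the second day alone and -1.65 in the authors' deposited comparison (their adjusted p = 0.161). Pfkfb2 and Pfkfb4 lay between 5.5 and 6.13 on all arrays and were called nowhere.

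None of the 4 pentose phosphate genes was called between adult and embryonic cells by limma at the threshold, and 3 had an unadjusted p under 0.05. Of all 39601 named clusters, 6.42% were called and 10579 had such an unadjusted p. Taldo1, transaldolase of the non-oxidative arm, had 9.67, 10.05 and 9.86 in adult cells, 10.54, 10.98 and 10.71 in embryonic cells, and 11.11, 11.37 and 11.63 in mESC. The groups did not overlap, and the adult minus embryo difference was -0.88 ± 0.17 (adjusted p = 0.00996). Tkt, transketolase of the same arm, averaged 7.8 ± 0.22, 8.47 ± 0.04 and 9.06 ± 0.24 in the adult, embryo and mESC groups (adult minus embryo -0.67 ± 0.14, adjusted p = 0.0167). Both were called lower in adult cells than in mESC, by 2.85-fold for Taldo1 and 2.39-fold for Tkt. The oxidative arm moved less. G6pdx, which opens the branch and makes NADPH, averaged 10.71 ± 0.06, 10.87 ± 0.08 and 11.25 ± 0.23 in the adult, embryo and mESC groups (adult minus embryo -0.16 ± 0.11, adjusted p = 0.472). Pgd, the next dehydrogenase, averaged 6.89 ± 0.33 in adult cells, 7.42 ± 0.22 in embryonic cells and 7.48 ± 0.14 in mESC. That the arms differ was not tested.

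Genes around the pathway were followed with 12 further lists. The other hexose transporters (0 of 9), gluconeogenesis (0 of 8), the remaining subunits and phosphatases of pyruvate dehydrogenase (0 of 8) and glycogen metabolism (0 of 11) had no gene called between adult and embryonic cells by limma. At an unadjusted p under 0.05 these lists had 0, 1, 1 and 3 genes, against 10579 of all 39601 named clusters. Of all named clusters, 6.42% were called for adult minus embryo, 3.59% lower and 2.83% higher. At that share a list of 8 to 11 genes can hold no called gene, so these counts do not show that the lists stayed unchanged. The other glycolytic enzymes had 2 of 12 called lower, namely Galm, an aldose mutarotase (-1.42 ± 0.28, adjusted p = 0.0116), and Pfkfb1 (-1.08 ± 0.23, adjusted p = 0.0154), whose adult mean of 4.88 was near the negative-control median. The other lactate and pyruvate genes had 1 of 10, Emb, and the other pentose phosphate genes 1 of 10, Prps1, which turns ribose phosphate into the nucleotide precursor (-1.04 ± 0.13, adjusted p = 0.00156). In the tricarboxylic acid cycle 1 of 16 was called, Idh3a (-1.06 ± 0.15, adjusted p = 0.00272), and not without adult replicate 1. The median difference of that list was -0.15.

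The branches to hexosamine and serine had 2 of 10 genes called lower in adult than in embryonic cells, against 3.59% of all named clusters. Both were serine hydroxymethyltransferases, which feed one-carbon metabolism. Shmt2, the mitochondrial enzyme, had 10.07, 10.43 and 10.08 in adult cells, 12.54, 13.2 and 12.52 in embryonic cells, and 12.87, 12.82 and 13.08 in mESC (adult minus embryo -2.56 ± 0.2, adjusted p = 0.000168). Shmt1, the cytosolic enzyme, gave -1.68 ± 0.25 (adjusted p = 0.00358). For adult minus mESC 7 of the 10 were lower, 6 of them without adult replicate 1, against 10.3% of all named clusters. The largest differences were those of Gfpt2 (-7.09 ± 0.14), of hexosamine synthesis, Psat1 (-4.54 ± 0.15), of serine synthesis, Shmt2 (-2.73 ± 0.2) and Shmt1 (-2.25 ± 0.25). Gfpt2 and Psat1 also separated embryonic cells from mESC (-6.33 and -3.76).

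Regulators of the pathway were mixed. Among 10 genes of oxygen sensing, 4 were lower and 1 higher in adult than in embryonic cells, against 3.59% and 2.83% of all named clusters. Egln3, a prolyl hydroxylase that marks hypoxia-inducible factors for degradation and is itself induced by them, had 6.04, 5.55 and 5.42 in adult cells, 9.82, 10.09 and 9.06 in embryonic cells, and 12.57, 12.53 and 12.6 in mESC (adult minus embryo -3.99 ± 0.26, adjusted p = 9.5e-05). Arnt2, a partner subunit, gave -1.94 ± 0.2, Hif3a -1.23 ± 0.09 and Egln1 -1.1 ± 0.14, the last not called without adult replicate 1. Epas1, the subunit HIF-2 alpha known from endothelium, had 7.07, 8.5 and 7.56 in adult cells, 5.75, 5.31 and 5.66 in embryonic cells, and 8.2, 8.28 and 8.04 in mESC (adult minus embryo 2.14 ± 0.32, adjusted p = 0.00359). Hif1a itself averaged 11.34 in adult cells, 11.73 in embryonic cells and 10.86 in mESC (adult minus embryo -0.39 ± 0.08, adjusted p = 0.0181), under the minimum. Protein levels were not measured.

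Genes outside sugar metabolism that answer to low oxygen were called in both directions. Their median adult minus embryo difference was -0.55, against -0.01 over all named clusters. In limma 13 of the 16 had an unadjusted p under 0.05, against 10579 of all 39601 named clusters. There were 4 called lower and 2 higher, against 3.59% and 2.83% of all named clusters. Of 16, Egln3, Ankrd37 (-1.7 ± 0.16), Kdm3a (-1.22 ± 0.13) and Ero1l (-1.13 ± 0.19) were lower in adult than in embryonic cells. Ndrg1, a gene also tied to differentiation, was higher, with 12.3, 11.48 and 11.94 in adult cells, 7.56, 7.67 and 7.55 in embryonic cells, and 8.23 on all 3 mESC arrays (adult minus embryo 4.31 ± 0.18, adjusted p = 1.29e-05). P4ha2, a collagen prolyl hydroxylase, was higher as well (1.08 ± 0.27, adjusted p = 0.0304), though not without adult replicate 1. Vegfa gave -0.53 ± 0.2 (adjusted p = 0.128).

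Of 14 other regulators, 2 were higher and 1 lower in adult than in embryonic cells, against 2.83% and 3.59% of all named clusters. Txnip, which takes glucose transporters off the cell surface and whose transcription rises with glucose, had 16.02, 15.82 and 15.71 in adult cells, 13.48, 13.87 and 14.25 in embryonic cells, and 17.15, 17.05 and 17.35 in mESC (adult minus embryo 1.98 ± 0.19, adjusted p = 0.000465). Its relative Arrdc4 had 9.09, 9.19 and 8.88 in adult cells, 7.29, 8.3 and 8.09 in embryonic cells, and 10.79, 10.9 and 10.93 in mESC (1.16 ± 0.24, adjusted p = 0.0136). Both were lowest in the embryo, as Ldhb was. Trp53 was lower in adult cells (-1.24 ± 0.08, adjusted p = 7.44e-05).

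**Figure D5:**
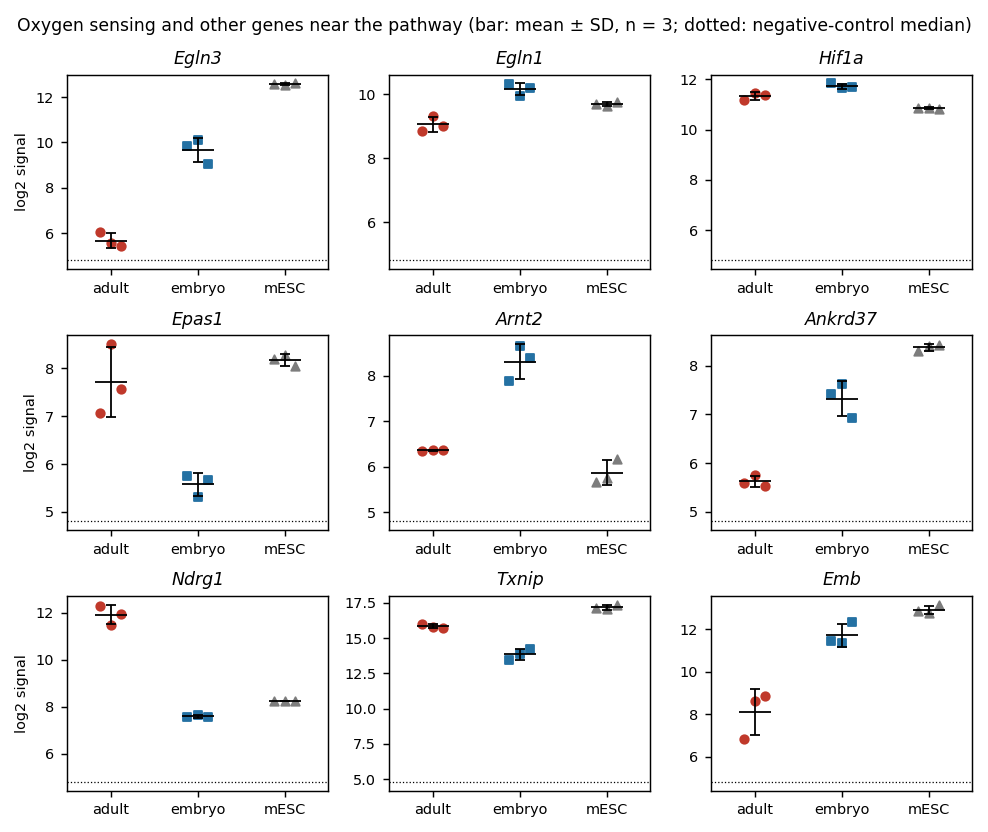
Deposited log2 signal (vertical axes) of 9 genes of oxygen sensing, glucose response and lactate transport that are not among the 37, with 1 symbol per array, the mean ± SD of 3 arrays for the adult, embryo and mESC groups, and a dotted line at the negative-control median. Egln3, Ankrd37 and Emb run from low in adult cells to high in mESC, Ndrg1 is high in adult cells only, and Epas1, Txnip and Arnt2 set the embryo apart from both other groups.

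Markers of other cells and of cell division moved with the adult minus embryo comparison, in which 3.59% of all named clusters were called lower and 2.83% higher. All 8 markers of cycling cells were called lower in adult cells, 7 of them without adult replicate 1, with a median of -2.08, and their log2 summed signal was 14.49 to 14.95 in adult cells, 16.15 to 16.37 in embryonic cells and 16.38 to 16.47 in mESC. All 9 measured macrophage and leukocyte markers were higher, 8 of them without adult replicate 1, with summed signals of 13.87 to 14.12 in adult cells, 8.73 to 10.29 in embryonic cells and 10.2 to 10.73 in mESC. The brightest in adult cells were Lyz2 at 13.08 and Csf1r at 11.11, against 4.86 and 5.75 in embryonic cells, where Ptprc, C1qa, C1qb, C1qc and Fcer1g were below the negative-control median. Mesenchyme markers were higher for 5 of 9, 4 without adult replicate 1. Their summed signals were 14.36 to 16.84 in adult cells, 11.0 to 13.03 in embryonic cells and 9.79 to 10.84 in mESC. Osteoblast and odontoblast markers were higher for 5 of 7, with 10.95 to 13.77 in adult cells and 7.21 to 7.5 in embryonic cells. In mESC that list summed to 12.45 to 13.49, although 6 of its 7 markers, all but Spp1, lay below the negative-control median there.

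Ameloblast markers were higher for 4 of 6, led by Ambn at 19.37 and Amelx at 19.02 in adult cells, against 6.71 and 5.98 in embryonic cells. The list's summed signal was 20.62 to 20.89 in adult cells and 8.83 to 9.95 in embryonic cells, with Mmp20 and Klk4 below the negative-control median in the embryo and Klk4 in the adult. Endothelial markers had 1 of 7 called higher, erythroid markers 1 of 6, and neuron and Schwann cell markers 0 of 8. The labels were checked against markers of the labelled cells. Dental epithelium markers summed to 16.79 to 17.66 in adult cells, 16.73 to 17.45 in embryonic cells and 15.15 to 15.39 in mESC. Of these 8 markers, 6 were called higher and 1 lower in embryonic cells than in mESC, against 4.89% and 6.1% of all named clusters. In adult cells 6 were higher and 0 lower than in mESC, against 6.86% and 10.3%. Krt5 and Krt14 averaged 16.32 and 15.06 in adult cells, 15.77 and 15.41 in embryonic cells, and 5.64 and 6.35 in mESC. Pluripotency markers summed to 7.58 to 8.12 in adult cells, 7.61 to 7.77 in embryonic cells and 19.4 to 19.64 in mESC. The part of other cell types and of cell division in the differences of the 37 genes was not tested.

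Within the first processing day, as read from the digits in the column names, the median adult minus embryo difference of the 37 genes was -0.79, and within the second -0.49. For Slc2a1 the values were -4.14 and -3.4, for Pgk1 -2.8 and -1.96, for Ldha -1.63 and -1.4, and for Ldhb 1.8 and 1.22, so each kept its direction on both days. The first-day values rest on 1 embryo array, which by its values is embryo replicate 2.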

How the data were processed

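Total RNA of 9 samples in 3 groups was measured on Affymetrix mouse arrays, according to the labels. Values for each cluster are log2 signals that the authors deposited, made by a summary called SST-RMA, of which no step is described. Affymetrix Expression Console, RMA and Transcriptome Analysis Console appear in the submitters' processing notes with neither version nor role. Such scaling between arrays hides a shift common to most genes. The authors also deposited signed linear fold changes, p-values and adjusted p-values per comparison, per the file headers. No source used here states the build of the coordinates, and 99.13% of 28783 single-symbol clusters overlapped the gene of that symbol in GRCm38.p6. Of 65956 clusters, 39601 carried a symbol (36559 one symbol, 3042 several) and were tested, and 26355 did not. Depth has no meaning for arrays, and their number limits the precision.

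Groups and replicate numbers came from the sample titles. The 37 genes and all lists were chosen with earlier results of these data known. Each gene was represented by its brightest cluster, 5 of which carry several symbols. limma 3.58.1 in R 4.3.3 fitted all 9 arrays with 3 group means (6 residual degrees of freedom), with p-values adjusted over all 39601 clusters, and was tested on simulated data. A call needed an adjusted p under 0.05 and a log2 difference of at least 1. Within-array gene pairs were compared with exact permutation tests in SciPy 1.17.1. Deviations of same-numbered adult and embryo samples correlated weakly (0.154, 0.001 and 0.052), against -0.126 to 0.113 for samples of different number. The samples were not treated as pairs, though 3 arrays per group cannot show that they were unpaired. All 37 genes are accounted for. Of each further list all genes called for adult minus embryo are named where 5 or fewer were called, otherwise the 4 with the largest difference, and of each marker list the range and the 2 brightest genes, printed here for the lists of most weight. Other genes of these lists named in the text, such as Bsg, Vegfa and Hif1a, were chosen after their values were seen. Alternatives covered the variance model, scaling, dim clusters, the cluster per gene, processing day (read from digits in column names), embryo columns of the same code averaged, each array left out, and the authors' comparison. Promoters came from RefSeq.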

Additional observations from a re-analysis of the deposited data

How the results depend on the processing

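No direction reversed among the called results. Leaving out 1 array in turn moved the number of named clusters called between 2089 and 2691 for adult minus embryo, 3925 and 4444 for embryo minus mESC, and 6565 and 6889 for adult minus mESC. Among the 37 genes it gave 2 to 3 higher and 10 to 13 lower with medians of -0.73 to -0.58 for adult minus embryo, 0 to 1 higher and 11 to 12 lower with -0.63 to -0.48 for embryo minus mESC, and 1 higher and 20 to 22 lower with -1.38 to -1.24 for adult minus mESC. Slc2a4 was the gene no longer higher in embryo than in mESC without embryo replicate 2. Replicate numbers as a block left 12 lower and 2 higher genes for adult minus embryo (2492 clusters) and changed no other count by 1.5 times. Testing only the 2 dental groups left 1 gene higher. Quantile normalisation gave a median of -0.49 for adult minus embryo. Restricting to clusters brighter than the 95th percentile of negative controls (8.79) kept 16 of the 37 genes, with 1 higher, 7 lower and a median of -0.91 for adult minus embryo (1170 clusters), 0 higher and 6 lower for embryo minus mESC (1706 clusters), and 0 higher, 13 lower and -1.48 for adult minus mESC (2887 clusters). The share called among all clusters that bright is not given here, so these counts and medians lack a background of equal brightness. Clusters with 1 symbol gave -0.54 for adult minus embryo, over 32 or 33 genes. The first day alone, with 1 residual degree of freedom, called 0 clusters in limma, 0 genes higher and 0 lower, with 6112 clusters and 18 of the 37 genes at an unadjusted p under 0.05 and a median of -0.79. The second day alone called 1531 clusters and 1 gene higher for adult minus embryo (median -0.49), and 0 higher for embryo minus mESC. That day held 1 adult array, so its adult minus embryo counts rest on that array. There Slc2a4 (-0.6), Aldoc (-0.97) and Pdk1 (-0.73), called lower with all arrays, fell short of the minimum for adult minus embryo. The other genes called lower with all arrays ran from -1.07 (Slc16a3) to -3.4 (Slc2a1) on that day. With all arrays and without a minimum difference, 6314, 10966 and 14425 clusters were called for adult minus embryo, embryo minus mESC and adult minus mESC. Of the 37 genes, 21 were then lower and 3 higher in the first. In the second 20 were lower and 2 higher, and in the third 27 were lower and 3 higher. The authors' deposited table called 594 clusters for adult minus embryo, with 0 genes higher and 5 lower (Slc2a1, Pfkl, Tpi1, Pgk1 and Ldha). Fewer clusters, arrays or degrees of freedom enter several of these by construction. For the others the cause was not tested. Signals near the negative-control median of 4.81 limit Slc2a4, Hk3 and Pgam2.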

Other observations

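Outside the 37 genes, the hexosamine and serine branches had the lowest embryo minus mESC median of the 12 further lists. It was -0.52, against -0.07 over all named clusters. In that list 4 of 10 genes were lower in embryonic cells than in mESC, against 6.1% of all named clusters. Gnpnat1, of hexosamine synthesis, averaged 8.83 ± 0.1 in adult cells, 8.86 ± 0.21 in embryonic cells and 10.66 ± 0.17 in mESC (SD, n = 3 each). Gpt2, a mitochondrial alanine aminotransferase that links pyruvate to amino acids, averaged 7.33 ± 0.01 in adult cells, 7.4 ± 0.19 in embryonic cells and 10.39 ± 0.05 in mESC (embryo minus mESC -2.99 ± 0.09, adjusted p = 5.01e-07 in limma). Slc16a7, the monocarboxylate transporter MCT2, ran the other way, with 7.26 ± 0.3 in adult cells, 6.58 ± 0.01 in embryonic cells and 5.58 ± 0.05 in mESC, and was called higher in adult cells than in mESC (1.68 ± 0.13, adjusted p = 4.3e-05). Myc averaged 9.08 ± 0.09 in adult cells, 10.06 ± 0.18 in embryonic cells and 8.21 ± 0.15 in mESC, and Mycn averaged 5.57 ± 0.17 in adult cells, 5.93 ± 0.08 in embryonic cells and 7.5 ± 0.1 in mESC. Ppargc1a, a coactivator of mitochondrial genes, was higher in both dental groups than in mESC, at 9.5 ± 1.21 in adult cells, 8.3 ± 1.38 in embryonic cells and 4.28 ± 0.18 in mESC.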
